A study of Homo sapiens with 2 samples.

Results

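Summits of the chromatin protein ZMYND8 were taken at 8 genes of the epithelial-mesenchymal transition (EMT): the vimentin gene VIM, the transcription factor genes ZEB1, SNAI1, SNAI2 and TWIST1, the cadherin genes CDH1 and CDH2, and the fibronectin gene FN1. A summit is the base at which a peak of chromatin immunoprecipitation sequencing (ChIP-seq) reads is highest. Members were all summits inside the 8 gene spans on hg19 after each span had been widened by 5 kb at either end. This rule took 19 of the 45924 summits of the parental list (0.0414%, exact binomial interval 0.0249 to 0.0646) and 1 of the 385 summits of the knockout list (0.260%, 0.00658 to 1.44). All intervals are 95% intervals for counting error only. They treat summits as independent, but 41.2% of the parental list had another parental summit within 1 kb. Such clustering makes the density intervals and those of density ratios too narrow.

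The data came from mammospheres, floating cultures of MDA-MB-231, an established triple-negative breast cancer line known for its mesenchymal form. The libraries used here were 1 from spheres of the wild-type genotype and 1 from spheres with ZMYND8 knocked out, and chromatin from both was precipitated with the same ZMYND8 antibody. Whether the knockout was a clone or a pool, how it was made and how deeply each library was sequenced is not stated in the labels. The deposited lists are marked as a second replicate, and no other replicate was analysed here. As each genotype was represented by 1 library, there was no replicate check and no test between genotypes. The knockout list, 0.838% as long as the parental list, was only counted and set beside the parental positions. Parental counts, scores and densities were not corrected by it here. Summit lists carry no transcript levels, so neither the line's markers nor the expression of ZMYND8 or of the 8 genes could be checked.

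In EMT, epithelial cells lose their junctions and acquire a migratory, fibroblast-like form. The zinc finger factors SNAI1, SNAI2 and ZEB1 bind E-box sequences and repress CDH1, which encodes E-cadherin of the epithelial junction, and TWIST1 is a basic helix-loop-helix factor that acts in the same programme. Cells that have passed through it typically carry vimentin filaments, N-cadherin (CDH2) and a fibronectin matrix (FN1). ZMYND8 itself is a reader of histone marks that works with corepressor and demethylase complexes as well as at active chromatin.

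Sequence upstream of the start site was available for 4 of the 8 genes, VIM, ZEB1, FN1 and CDH2, in 11 windows from RefSeq on GRCh38.p14. Windows are shown for the 3 of these genes with a parental summit within 1 kb of the start, each as the 250 bases before a RefSeq start, 5′ to 3′ on the gene's strand. ZEB1 had 7 RefSeq starts spread over 3243 bp, and its 2 windows with a CAGGTG are shown. Capitals mark CAGGTG (the E-box read by ZEB and SNAIL factors), GGGCGG (the GC box) and TGACGTCA (the cyclic AMP response element), each on either strand. The windows are on another build than the summits, and no distance between a window and a summit was taken.
VIM, chr10:17227991-17228240, plus strand: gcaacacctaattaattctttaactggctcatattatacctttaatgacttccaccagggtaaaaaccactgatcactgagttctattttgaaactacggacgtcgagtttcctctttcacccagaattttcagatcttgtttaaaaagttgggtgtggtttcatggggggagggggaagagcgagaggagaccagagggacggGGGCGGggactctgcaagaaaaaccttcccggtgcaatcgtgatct
ZEB1, chr10:31318167-31318416, plus strand: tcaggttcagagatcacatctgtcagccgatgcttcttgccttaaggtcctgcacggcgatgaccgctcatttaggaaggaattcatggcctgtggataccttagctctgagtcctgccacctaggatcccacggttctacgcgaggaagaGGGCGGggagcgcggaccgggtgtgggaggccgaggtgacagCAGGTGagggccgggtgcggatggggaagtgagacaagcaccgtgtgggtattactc
ZEB1, chr10:31318966-31319215, plus strand: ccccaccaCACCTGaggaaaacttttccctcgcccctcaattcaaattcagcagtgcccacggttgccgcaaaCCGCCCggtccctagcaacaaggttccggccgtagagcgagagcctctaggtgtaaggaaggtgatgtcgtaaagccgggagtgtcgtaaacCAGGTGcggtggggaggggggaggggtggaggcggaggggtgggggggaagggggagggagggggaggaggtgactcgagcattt
FN1, chr2:215436069-215436318, minus strand: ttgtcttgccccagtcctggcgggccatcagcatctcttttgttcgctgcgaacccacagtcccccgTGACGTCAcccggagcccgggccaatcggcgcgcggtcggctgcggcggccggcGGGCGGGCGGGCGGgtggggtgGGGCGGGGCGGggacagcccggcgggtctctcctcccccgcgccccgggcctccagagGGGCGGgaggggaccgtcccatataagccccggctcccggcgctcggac

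These windows differ in composition. The FN1 window held 76.4% G and C, 32 CG dinucleotides, 6 GC boxes (overlapping copies counted) and 1 cyclic AMP response element at -183. The VIM window held 46.0% G and C, 8 CG dinucleotides and 1 GC box, against a median of 58.0% and 11 CG dinucleotides over 35116 windows of the same length. The RefSeq start behind a window need not be the main start of its gene, so these values need not describe the main VIM promoter. CAGGTG occurred at -57 in the first ZEB1 window shown and at -242 and -85 in the second, counted from the start to the motif's first base. Of all windows 17.5% held CAGGTG, 42.6% GGGCGG and 1.65% TGACGTCA, the last of which was searched only after the FN1 sequence had been seen. CANNTG, any E-box and so including CAGGTG, was in 61.8% of all windows and in neither the VIM nor the FN1 window. The AP-1 motif TGANTCA was in 6.57% of all windows and in none of those shown, but lay at -102 in a CDH2 window that is not shown. Among the 11 windows, only the 2 ZEB1 windows shown held CAGGTG, for which they were picked.

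At least 1 parental summit was found at 7 of the 8 genes and none at TWIST1. VIM and ZEB1 held 12 of the 19 summits (63.2%), with 6 each. FN1 held 3, and SNAI1, SNAI2, CDH1 and CDH2 held 1 each. The one knockout summit lay at SNAI1. A sample of 330 other protein-coding genes, placed on hg19 by the transcript models of software example sets, gave a comparison. In spans widened in the same way 64.5% of them had a parental summit and 0.909%, or 3 genes, had a knockout summit. The sample was not random, and part of it states no build. The 8 genes were chosen by name and not by a rule on their summits, though with earlier results of these data known.

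**Figure D1:**
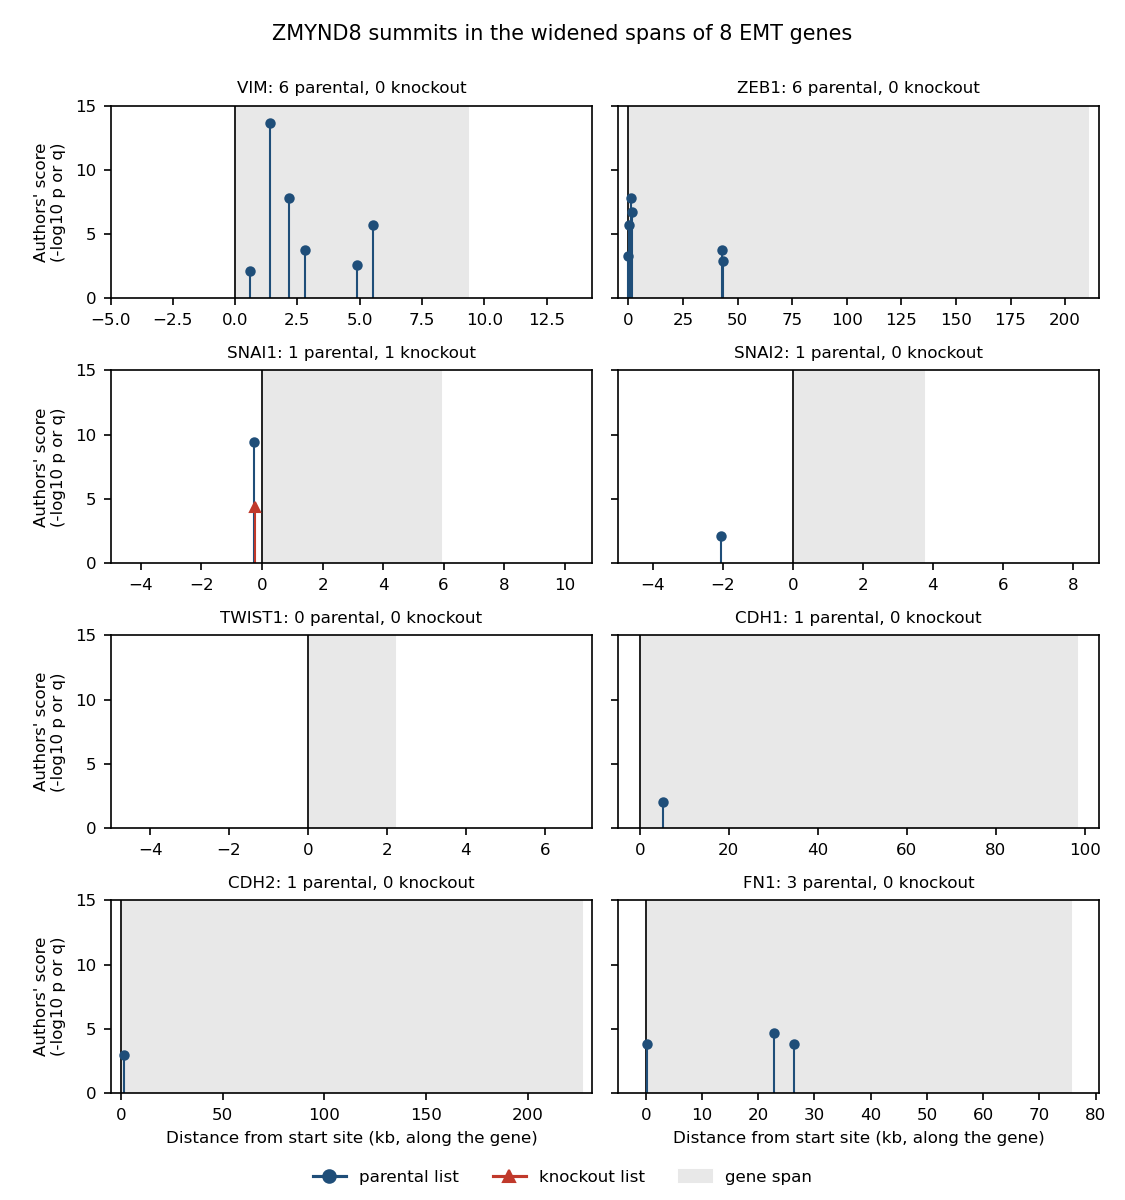
Each panel shows a gene from 5 kb before its start site to 5 kb past its end, with distance from the start (kb) against the authors' score. Circles are parental summits, the triangle is the knockout summit and grey is the gene span; summits of ZEB1, CDH2 and FN1 lie toward the start, and TWIST1 has none.

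Each summit comes with a score from the authors, the −log10 of a p or q value (the labels do not say which). It ranks summits within a list and depends on sequencing depth. Member scores ran from 2.05 to 13.6 with a median of 3.79, and the parental list had the same median of 3.79 and reached 264. Of the 19 member summits, 8 scored above that median, 4 at it and 7 below it. A score of at least 10 was reached by 1 of them (5.26%, 0.133 to 26.0), against 6.27% of the parental list. A score of at least 5.68, the highest 25% of the list with ties, was reached by 7 (36.8%, 16.3 to 61.6), against 26.1% of the list. These 7 were 3 summits of VIM, 3 of ZEB1 and the summit of SNAI1. Many summits share a score, and the value 3.79 alone was carried by 5492 of them, so ranks are given as ranges.

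**Figure D2:**
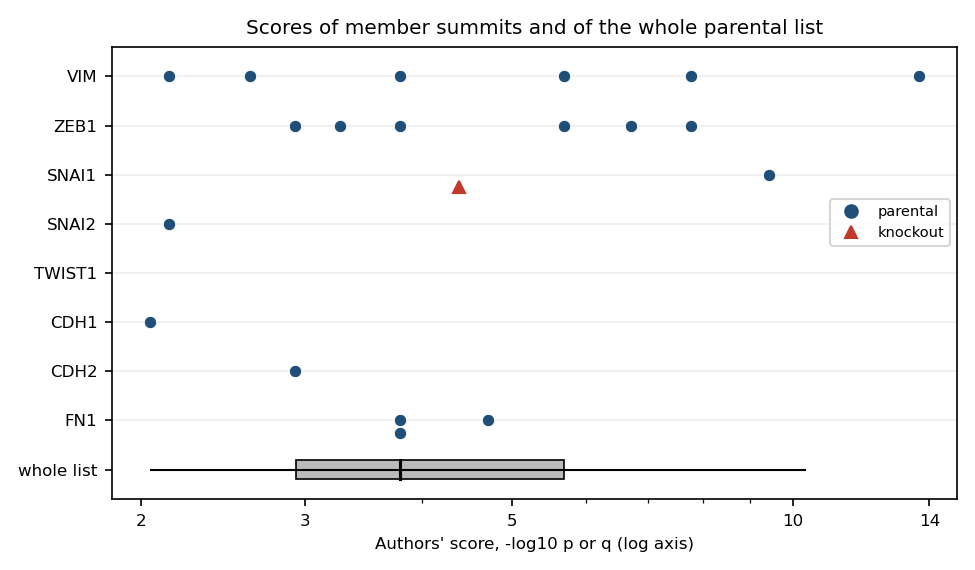
The authors' score (log axis) of every member summit is shown by gene, with the whole parental list below as its median (line), 25th to 75th percentile (box) and 5th to 95th percentile (bar). The VIM summit at 13.6 stands beyond the bar, which ends at 10.3, and the cadherin and SNAI2 summits lie between 2.05 and 2.93.

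VIM, the gene of the intermediate filament protein used as the standard mesenchymal marker, was the most densely occupied of the 8. Its span (hg19, chr10:17270258-17279592, plus strand) held 6 parental summits within 4.92 kb, all inside the gene. From the start site inward they lay at 599, 1403, 2150, 2788, 4873 and 5516 bp. In the same order their scores were 2.14, 13.6, 7.77, 3.79, 2.62 and 5.68. The scores were thus highest at 1403 and 2150 bp. Distances here and below are from the 5′ end of the span, which need not be the main start site of a gene. The summit at 17271661, with a score of 13.6, was the highest of the whole group and ranked 967 to 1133 in the parental list, or within its upper 2.47%. No knockout summit lay in the span.

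Per length, VIM held 3.10 parental summits per 10 kb (1.14 to 6.75), against 0.148 over the hg19 chromosomes that carry summits. That was 20.9 times the genome's density (7.68 to 45.5). Among the 330 sampled protein-coding genes 97.3% had a lower density. That share is not matched for length: the sampled genes had a median widened span of 41.7 kb. Those of at least 100 kb had a median of only 0.0674 summits per 10 kb. When the genome was cut once into windows of the widened VIM width (19.3 kb), 13.6% held a parental summit and 0.781% held 6 or more. VIM was singled out here as the densest of the 8, and the intervals take no account of that choice or of the clustering of summits.

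ZEB1, the zinc finger and homeodomain repressor of epithelial genes, also held 6 parental summits, in 2 separate places. Its span (chr10:31608101-31818742, plus strand) is 211 kb long. The first 4 summits formed a group 1.77 kb wide over the start, at -320, 453, 976 and 1453 bp. Their scores were 3.27, 5.68, 7.77 and 6.70, so the highest of the 4 lay inside the gene at 31609077 and ranked 4726 to 5839. A further pair lay 539 bp apart at 42715 and 43254 bp from the start, inside the gene, with scores of 3.79 and 2.93. The 41.3 kb between group and pair held no summit, and neither did the last 167 kb of the gene, 79.5% of its length. The knockout list had no summit in the span.

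Per length, ZEB1 stood less far from the genome than VIM. Its density of 0.272 per 10 kb (0.0998 to 0.592) was 1.83 times that of the genome, with an interval from 0.673 to 3.99 that includes equality. Windows of its width held 6 or more parental summits in 17.4% of cases and at least 1 in 53.6%. A lower density was found in 55.2% of all sampled genes, and in 89.1% of the 64 whose widened span was at least 100 kb.

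Both genes carried 4 parental summits within 3 kb of the start, a setting chosen after the positions had been seen. Of the sampled genes 4.55% had 4 or more there. All 6 summits of each lay within 1 kb of another of the same gene, which made 12 of the 19 members (63.2%, 38.4 to 83.7), against 41.2% of the parental list. ZEB1 is known to use more than 1 start site.

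SNAI1, the Snail repressor of E-cadherin, was the only member gene with a summit in both lists. The parental summit lay at chr20:48599262, 251 bp upstream of the start (span 48599513-48605420, plus strand), and the knockout summit at 48599296, 217 bp upstream. They were 34 bp apart, close to the median of 37 bp over all 291 knockout summits that have a parental summit within 200 bp. The parental score of 9.43 ranked 3071, within the upper 6.69% of its list. The knockout score of 4.39 ranked 207 of 385, below that list's median of 4.65. The 2 scores come from lists made separately and are not compared as amounts of binding. What the antibody recovered at this site without the ZMYND8 gene was not tested.

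For the other 18 member summits no knockout summit lay within 200 bp, and the nearest ones were from 478 kb (CDH1) to 11.6 Mb (VIM) away. The shared part of the members was therefore 1 of 19 (5.26%, 0.133 to 26.0), against 0.636% of the parental list. Among parental summits scoring from 5.68 to 13.6, the range of the 7 highest members, 0.917% had a knockout summit within 200 bp. The VIM and ZEB1 summits in that range were thus among the large majority of its sites with no partner in the short knockout list.

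SNAI2 (Slug), the close relative of SNAI1, had 1 parental summit of low score. It lay at chr8:49836044, 2056 bp upstream of the start (span 49830239-49833988, minus strand), with a score of 2.14 that ranked 39356 to 42738. The density of 0.727 per 10 kb (0.0184 to 4.05) rests on that summit alone. Windows of the SNAI2 width held a parental summit in 10.6% of cases and those of the SNAI1 width in 11.8%.

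TWIST1 (chr7:19155091-19157295, minus strand) had no summit in either list. Over its widened span of 12.2 kb a count of 0 allows up to 2.46 summits per 10 kb when the limit is set at 3 counts (a one-sided limit, unlike the intervals elsewhere), which is above the genome's 0.148, so a low density was not detectable here. Windows of this width held a parental summit in only 9.71% of cases. The 100 kb on either side of the widened span were also without a parental summit. The nearest lay 107 kb downstream of the start (score 3.79) and 287 kb upstream (score 5.68).

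**Figure D3:**
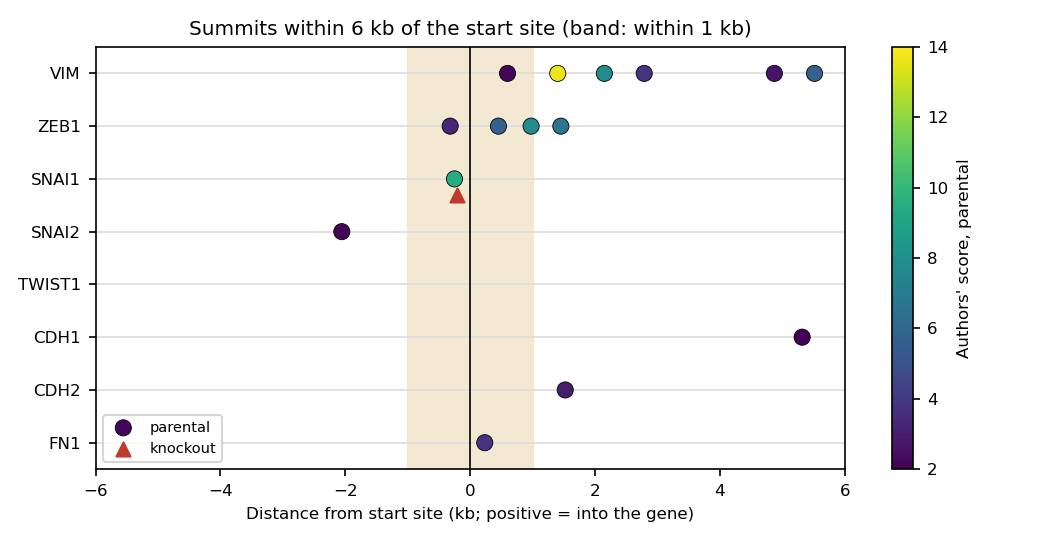
Summits within 6 kb of the start site are shown by gene against distance from the start (kb, positive into the gene), with circles coloured by the parental score, the triangle for the knockout summit and a band for 1 kb on either side. VIM and ZEB1 have several circles inside the gene, whereas the SNAI1 and SNAI2 summits lie upstream.

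The cadherin genes were long and held few summits. CDH1 (chr16:68771195-68869444, plus strand), the gene of epithelial E-cadherin, had 1 parental summit, at 68776513, inside the gene 5318 bp from the start. Its score of 2.05 was the lowest of all members and ranked 43465 to 44183 of 45924. The remaining 92.9 kb of the gene, 94.6% of its length, held none. CDH2 (chr18:25530930-25757445, minus strand), the gene of mesenchymal N-cadherin, had 1 at 25755922, 1523 bp inside, with a score of 2.93, and then 225 kb without a summit.

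Together the cadherins held 2 summits in 345 kb, or 0.0580 per 10 kb (0.00703 to 0.210). The other 6 genes held 17 in 367 kb, or 0.463 per 10 kb (0.269 to 0.741), which is 7.97 times the cadherin density (1.89 to 71.2). The grouping was made with the counts known, and this ratio compares stretches of 1 library. It also sets 2 long genes against a pool with short ones (VIM, SNAI1, SNAI2 and TWIST1). Without VIM, the remaining 5 genes held 11 summits in 348 kb, or 0.316 per 10 kb (0.158 to 0.565), and the ratio was 5.45 (1.19 to 50.6). For ZEB1 against CDH2, whose widened spans are similar (221 and 237 kb), the ratio was 6.43 (0.78 to 296), an interval that includes equality. Long genes with few summits were common elsewhere: of the 64 sampled genes of at least 100 kb, 34 (53.1%) had 1 or none. Of these 64, 57.8% had a lower density than CDH1 and 43.8% a lower one than CDH2. The density was 0.623 times that of the genome for CDH1 (0.0158 to 3.47) and 0.285 times for CDH2 (0.00722 to 1.59). Both intervals include equality. Windows of the CDH1 width held a parental summit in 39.4% of cases and those of the CDH2 width in 54.9%. Both the epithelial and the mesenchymal cadherin gene thus had 1 low-scoring summit in the first 6 kb and none within 1 kb of the start.

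FN1 (chr2:216225163-216300791, minus strand), which encodes the matrix glycoprotein fibronectin, had 3 parental summits, all inside the gene. One lay at 216300557, 234 bp from the start, with a score of 3.79. The others lay 22744 and 26405 bp from the start with scores of 4.71 and 3.79, so the promoter summit was no higher than those deeper in the gene. The density of 0.350 per 10 kb (0.0723 to 1.02) was 2.36 times that of the genome, with an interval from 0.487 to 6.90. Windows of the FN1 width held at least 1 parental summit in 35% of cases and 3 or more in 14.7%.

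**Figure D4:**
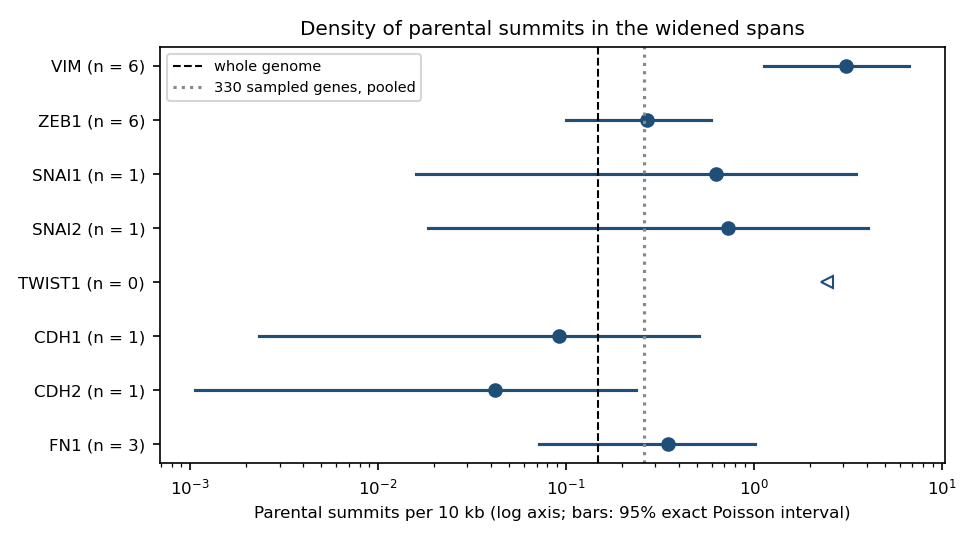
Parental summits per 10 kb of widened span (log axis) are shown by gene with 95% exact Poisson intervals; the dashed line is the genome and the dotted line the 330 sampled genes pooled, and the open triangle for TWIST1 is the limit of 3 counts that a count of 0 allows. Only the VIM interval lies wholly above the genome's 0.148.

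Over the 8 genes together the density was 0.267 per 10 kb (0.161 to 0.417) in 712 kb. This was 1.80 times the genome's density (1.08 to 2.81) and close to the 0.260 of the sampled protein-coding genes pooled. The median over the single sampled genes was lower, at 0.207 per 10 kb. Without VIM the density of the member genes was 0.188 per 10 kb (0.0999 to 0.321), an interval that includes the genome's density. VIM, ZEB1, SNAI1 and FN1, or 4 of the 8 genes (50%, 15.7 to 84.3), carried a parental summit less than 1 kb from the start. The share among the sampled genes, 48.5%, lay near the middle of that interval.

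Most member summits lay within 6 kb of the start of their gene. Of the 19, 6 were within 1 kb of the start, 12 (63.2%, 38.4 to 83.7) within 3 kb and 15 (78.9%, 54.4 to 93.9) within 6 kb. The 4 beyond were the ZEB1 pair and the inner FN1 summits, each more than 20 kb inside the gene. On the transcribed side lay 16 (84.2%, 60.4 to 96.6), and the 3 upstream belonged to ZEB1, SNAI1 and SNAI2. None of the 19 lay past the 3′ end of a gene. The rule admits only 5 kb upstream of each start, so a high share on the transcribed side follows largely from it. At VIM, SNAI1 and SNAI2 the zone within 6 kb covers much of the widened span (19.3, 15.9 and 13.8 kb). These shares were not taken over the whole list or the sampled genes.

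Just outside the 5 kb limit were 2 parental summits within 10 kb of a gene. One lay 9.42 kb upstream of VIM with a score of 4.71. The other lay 8.15 kb past the end of CDH1 with a score of 5.62, above that of the summit within CDH1.

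The surroundings of the genes differed widely. In the 100 kb to either side of the widened span, SNAI1 had 17 parental summits, or 0.850 per 10 kb (0.495 to 1.36), and VIM had 6, or 0.300 (0.11 to 0.653). CDH1 had 4, SNAI2 and FN1 had 3 each, ZEB1 and CDH2 had 1 each and TWIST1 had 0. SNAI1 thus had a single summit of its own in a neighbourhood rich in summits, and ZEB1 had 6 with 1 in its flanks. The ZEB1 flank density was 0.05 per 10 kb (0.00127 to 0.279), an interval that includes the genome's 0.148. Within 300 kb of its start ZEB1 had 16 parental summits, its own 6 among them. Upstream of VIM lay a group at 9.42 to 12.6 kb before the start, of which the highest, 10.85 kb before it, scored 10.02, below the 13.6 inside the gene. Within 300 kb of the start the highest parental score near VIM was 29.1, at 201.5 kb upstream. Near ZEB1 it was 13.6, at 185 kb upstream, and near SNAI1 it was 20.2, at 209 kb downstream, where the knockout list also had a summit (score 1.90). Whether any of these distant summits bears on the 8 genes was not tested.

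**Figure D5:**
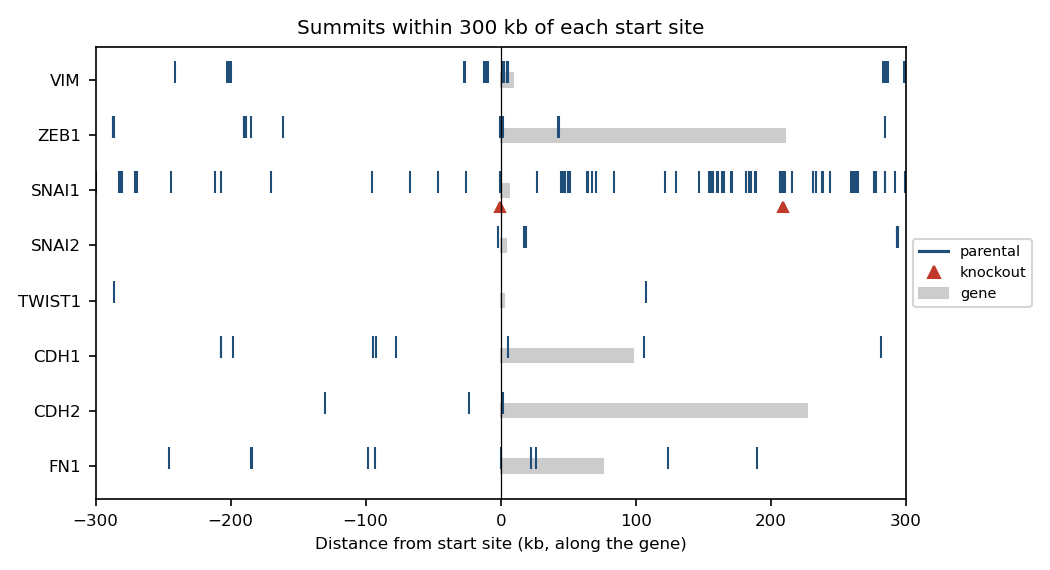
Ticks mark parental summits and triangles knockout summits within 300 kb of each start site (distance in kb along the gene), with the gene in grey. The SNAI1 row holds 73 parental summits, and the TWIST1 row holds 2 and the CDH2 row 3.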

How the data were processed

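Summit lists of 2 ChIP-seq libraries were used, 1 per genotype, grouped by their labelled genotype. Per the submitters' processing notes the tools were MACS2 2.0.10, Picard 1.127, Bowtie2 2.2.3 and FastQC 0.11.2 and the build was hg19; what each did is not recorded there. The deposited value per summit is the authors' −log10 p or q value. The sources used here do not give the threshold, the control library or the depth, so precision is given as counting error only.

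The spans came with the choice of genes, and members and lists were chosen with earlier results of these data known. Every member gene is named, with its highest summit, the one nearest the start, all within 1 kb of it and any knockout summit. Positions are 1-based hg19. The start site is the 5′ end of the span. Counts carry exact Poisson and shares exact Clopper-Pearson intervals. Ratios between groups of genes carry intervals conditional on the summed count. All of these treat summits as independent. Genome density and windows used lengths of chromosomes 1 to 22, X and Y from GenomeInfoDb 1.38.1, unsequenced gaps included, which lowers both.

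The 330 comparison genes are protein-coding genes of example sets in pyranges 0.1.4, which states no build and was read as hg19, and GenomicFeatures 1.54.1 (hg19), with symbols from RefSeq; these lie outside the deposited data. Only 9 of the 330 start within 5 kb of their GRCh38.p14 start. A gene's span was its widest run of overlapping transcripts in the set, so distant copies were not joined. No gene of a wider list of 42 EMT genes was among them, so that list was not analysed here. Counting was checked on planted summits, of which 28 of 28 were found. Alternatives covered span width, score, merging, start window and sharing distance. Computation used scipy 1.17.1, numpy 2.4.6, pandas 2.3.3, matplotlib 3.10.9 and Python 3.11.15.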

Additional observations from a re-analysis of the deposited data

How the results depend on the processing

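No paired analysis was possible because each genotype is represented by 1 library. Counts were taken to hold within 1.5 times their main value, and the density of all 8 spans within its interval; 23 alternatives held and 10 did not. The number of parental summits in the spans was 41 with spans widened by 50 kb, and 7 and 1 with score minimums of 5 and 10. The knockout count was 0 with spans not widened and with score minimums of 5 and 10, since its only summit lies upstream of SNAI1 and scores 4.39. Density was 0.0983 per 10 kb at a score of at least 5, which 29.7% of the parental list reached. The genome's density at that score was not taken, so this fall is not one relative to the genome. At that score 2 genes, ZEB1 and SNAI1, had a summit within 1 kb of the start. The count of members reaching a score of 10 became 7 at 5, and also 7 for the highest 25% of the list. These follow from the settings. Leaving out each gene gave densities from 0.188 (VIM) to 0.378 (CDH2) per 10 kb. Few summits per gene and unknown depth limit every value.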
